A study of Mus musculus with 6 samples.

Results

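The liver X receptors (LXRs) and 8 of their macrophage target genes were described in liver F4/80+ cells of mice with and without a myeloid deletion of *Lpcat3*. The 10 genes were taken by symbol from 49315 listed genes: the receptors *Nr1h2* (LXRβ) and *Nr1h3* (LXRα), and the targets *Abca1*, *Abcg1*, *Mylip*, *Apoe*, *Apoc1*, *Pltp*, *Smpdl3a* and *Arl4c*. *Lpcat3*, itself an LXR target, was kept out because it was the deleted gene. Both groups carried floxed *Lpcat3* alleles (Lpcat3 fl/fl). The Lpcat3 KOMac mice (n = 3) also carried 1 copy of LysM Cre, a recombinase placed in the lysozyme gene *Lyz2* and active in myeloid cells, and the littermates called WT (n = 3) carried none. All were C57BL/6N mice that began a high-fat diet (60% fat) when 8 to 12 weeks old and stayed on it for 16 weeks. The strain was studied with mice of both sexes, and the labels do not give the sex of these 6. Livers were digested with collagenase, hepatocytes were spun down, and F4/80+ cells were taken from the supernatant on magnetic beads. One poly-A library was made per mouse. LysM Cre deletes incompletely, and it acts in myeloid cells other than Kupffer cells (macrophages that reside in the liver), so the model is a partial one.

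LXRs are nuclear receptors that bind oxidized derivatives of cholesterol. They sit on DNA with a retinoid X receptor (RXR) as partner, on a pair of AGGTCA-like half-sites with 4 bases between them (called DR4), and switch from repressing to activating the gene when sterol is bound. In macrophages their targets export cholesterol, build lipoprotein particles, lower lipoprotein uptake and change membrane phospholipids, and Kupffer cells are known for high LXRα.

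The deleted gene was lower in every Lpcat3 KOMac library. *Lpcat3* stood at 85.0, 66.2 and 61.2 CPM (read counts scaled to library size, with TMM factors) in WT and at 19.5, 33.3 and 19.4 CPM in Lpcat3 KOMac (log2 fold change -1.56, SE 0.26, unadjusted p = 0.00119, adjusted p = 1.0 by the edgeR quasi-likelihood test). *Lpcat3* shares 10.2% of its exonic length with *Emg1* on the other strand. *Lyz2*, whose locus holds the Cre, was also lower, at 4695, 7659 and 6285 CPM against 2452, 1533 and 2980 CPM. Each library held between 44954224 and 71392812 counts. The Kupffer cell markers *Clec4f*, *Vsig4*, *Cd5l* and *Adgre1* were high in all 6 libraries, while *Timd4* and *Marco* varied, from 123 to 938 and from 149 to 3168 CPM. The 6-gene list summed to 24900 to 34000 CPM in WT and 18900 to 27200 CPM in Lpcat3 KOMac. Hepatocyte transcripts varied more: the 5-gene sum (*Alb*, *Apoa1*, *Ttr*, *Fgb*, *Ahsg*) was 1730 to 19300 CPM in WT and 4340 to 12500 CPM in Lpcat3 KOMac, highest in WT mouse 1 and Lpcat3 KOMac mouse 2. Monocyte markers summed to 75.3 to 142 and 74.0 to 141 CPM, stellate cell markers to 66.5 to 182 and 130 to 230 CPM, and those of lymphocytes, neutrophils, dendritic cells and cholangiocytes to at most 7.01 CPM each. In such pooled RNA, fewer cells of a type and less RNA per cell cannot be told apart.

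No LXR gene passed the test between genotypes. Of the 16134 genes tested (edgeR, quasi-likelihood, Benjamini-Hochberg adjusted), 0 were called (0.0%), and 426 had an unadjusted p under 0.05. Among the 10 LXR genes 0 were called, every adjusted p was 1.0, and 1 (*Smpdl3a*) had an unadjusted p under 0.05. DESeq2 called 12 genes (0.0868% of those with an adjusted p) and limma-voom 0, none of them among the 10. The fold changes lay between -0.48 and 0.04 on the log2 scale, 8 below 0 and 2 above, with a median of -0.16. Over all genes the median was -0.04, with 59.9% below 0, and over the 4045 genes with a mean of at least 50 CPM, a level all 10 reached, it was -0.07, with 74.6% below 0.

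**Figure D1:**
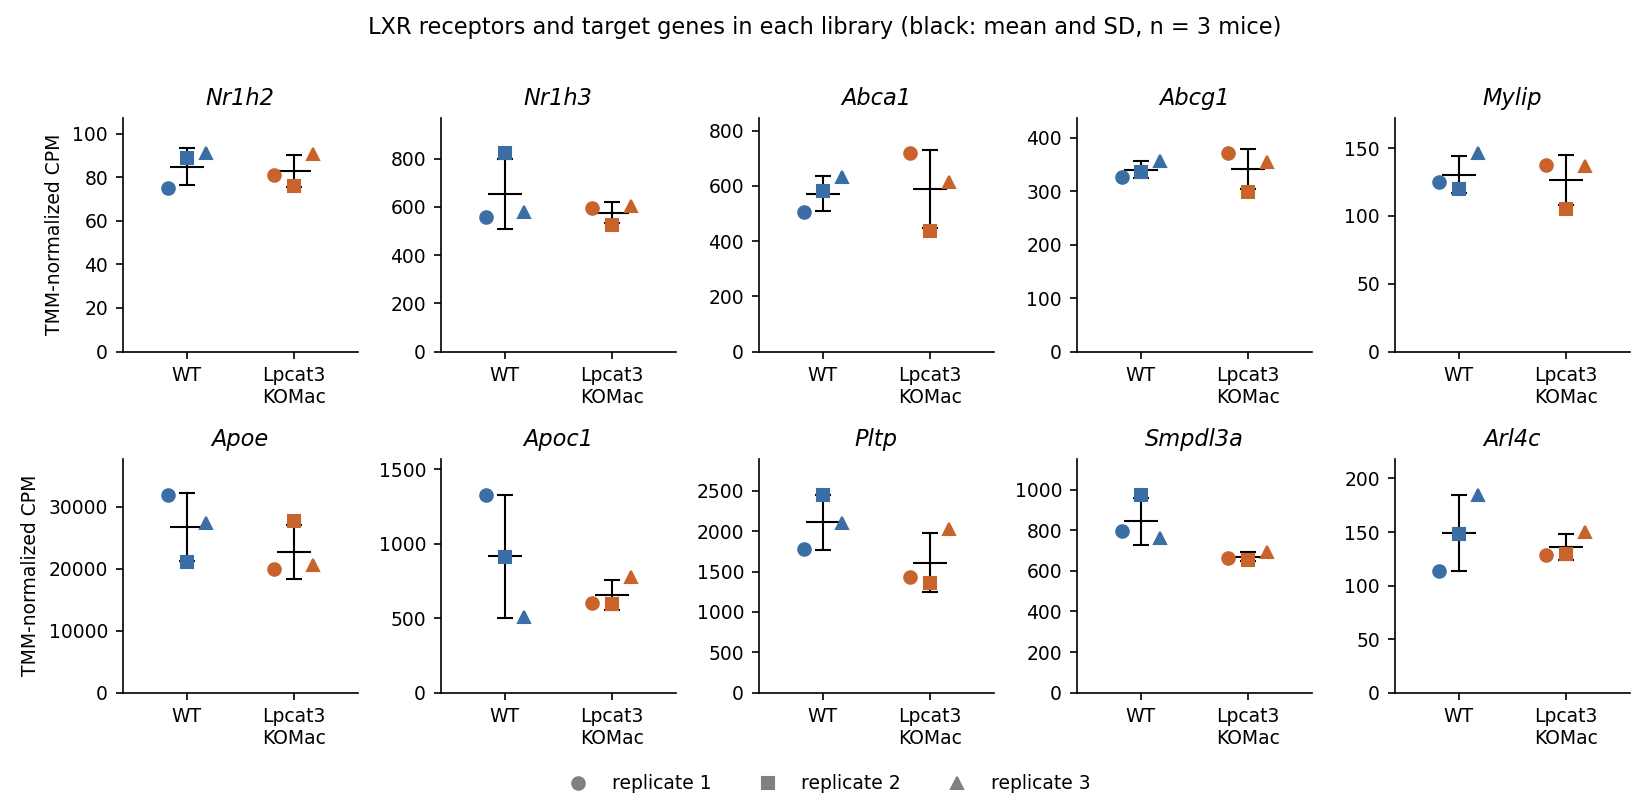
TMM-normalized CPM of the 10 LXR genes in each library, on linear axes from 0; blue symbols are WT, orange symbols Lpcat3 KOMac, and the black bars are the mean and SD (n = 3). Only *Smpdl3a* has all 3 Lpcat3 KOMac libraries (655 to 694 CPM) below all 3 WT libraries (761 to 976 CPM).

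The sequences that LXR reads were looked for around the RefSeq starts of the genes. RefSeq promoter windows (GRCm38.p6, 250 bases before to 50 after the start) were given for 7 of the 10 genes, all but *Abcg1*, *Apoc1* and *Smpdl3a*. The window of *Abca1*, the best known LXR target, is shown whole (chr4:53159846-53160145, minus strand, 5′ to 3′), with the half-sites of its closest DR4 match in capitals. The match lies on the strand opposite to the gene, so the capitals read TGACCG and TAACCC here.
Abca1 promoter: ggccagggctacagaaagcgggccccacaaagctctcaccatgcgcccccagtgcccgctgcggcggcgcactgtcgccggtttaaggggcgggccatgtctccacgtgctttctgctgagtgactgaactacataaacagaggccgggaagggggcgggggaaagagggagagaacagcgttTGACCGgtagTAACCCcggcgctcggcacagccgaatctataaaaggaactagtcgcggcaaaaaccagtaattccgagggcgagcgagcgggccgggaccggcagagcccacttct

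The matches of *Abca1* and *Arl4c* to the DR4 motif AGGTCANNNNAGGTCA, searched on both strands, are set side by side in the direction of the motif, half-sites in capitals, because they were the closest among these windows.
Abca1 site: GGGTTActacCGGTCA
Arl4c site: CGGTCTcccgGGGTCA
The *Abca1* site (chr4:53159947-53159962) began 67 bases before the RefSeq start and the *Arl4c* site (chr1:88702241-88702256) 65 bases before it. At the RefSeq start of *Arl4c* 0 transcripts of GENCODE M21 begin, so its distance does not count from the end of the gene given with its values. Each site differed from the motif in 3 of its 12 half-site letters. Windows that held a match at least as close made up 21.9% of all 32851 promoters. *Apoe* (in each of its 3 windows), *Nr1h2* and *Nr1h3* differed in 4 letters, as close as 76.9% of all promoters, and *Mylip* and *Pltp* in 5, as close as 99.8%. These are matches of letters in a short window, and binding was not measured.

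Of the receptors, LXRα was by far the more abundant transcript, and neither differed between genotypes beyond the spread. *Nr1h3* (ENSMUSG00000002108, chr2:91184061-91202834, minus strand) encodes LXRα. It stood at 557, 821 and 581 CPM in the WT libraries and at 594, 525 and 605 CPM in Lpcat3 KOMac. WT mouse 2 was high and the other 5 lay close together. The log2 fold change was -0.18 (SE 0.17, 95% interval -0.61 to 0.24), and it became 0.015 without WT mouse 2. *Nr1h2* (ENSMUSG00000060601, chr7:44549616-44553951, minus strand), the widely expressed LXRβ, was the steadiest of the 10, 1.21-fold from the lowest to the highest library. Its levels were 75.0, 88.8 and 90.9 CPM in WT and 81.2, 76.2 and 90.7 CPM in Lpcat3 KOMac, a log2 fold change of -0.04 (SE 0.11, 95% interval -0.32 to 0.24).

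Counted per kilobase of exon, *Nr1h3* exceeded *Nr1h2* between 8.52- and 12.3-fold in each library. LXRα thus made up 90.8, 92.5 and 89.5% of the LXR transcripts in WT and 90.7, 90.2 and 89.9% in Lpcat3 KOMac. The means were 90.9% ± 1.51 and 90.3% ± 0.405 (SD, n = 3 each), and the exact two-sided permutation test gave p = 0.6, where 0.1 is the smallest value that 3 mice against 3 allow. The share of LXRα was thus not distinguishable between the genotypes.

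The cholesterol exporters did not differ between genotypes beyond the spread, and the interval was narrower for *Abcg1* than for *Abca1*. *Abca1* (ENSMUSG00000015243, chr4:53030787-53159895, minus strand), which loads cholesterol and phospholipid onto apolipoprotein A-I, stood at 505, 580 and 630 CPM in WT. It stood at 717, 435 and 613 CPM in Lpcat3 KOMac, which held both the highest and the lowest library. The log2 fold change was 0.04 (SE 0.20, 95% interval -0.46 to 0.54). *Abcg1* (ENSMUSG00000024030, chr17:31057698-31115777, plus strand), which passes cholesterol on to HDL, was at 327, 336 and 357 CPM in WT and at 370, 299 and 354 CPM in Lpcat3 KOMac. Its WT range lay inside the Lpcat3 KOMac range, and the 95% interval of its change was 0.835- to 1.21-fold.

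The 2 exporters put the 6 libraries in the same order, from Lpcat3 KOMac mouse 2 at the bottom through WT mice 1 and 2, Lpcat3 KOMac mouse 3 and WT mouse 3 to Lpcat3 KOMac mouse 1 at the top. The 2 lowest, Lpcat3 KOMac mouse 2 and WT mouse 1, were the 2 libraries richest in hepatocyte transcripts. Among 9434 genes ranked by Pearson r with *Abca1* over the log2 CPM of the 6 libraries, *Abcg1* was in place 3 (r = 0.985). It followed *Dennd2d* (r = 0.988) and *Klf4* (r = 0.987) and preceded *Mcoln2* (r = 0.981) and *Galnt6* (r = 0.979). *Mylip* was in place 162 (r = 0.856), and *Apoe* ran the other way (r = -0.676). The points are libraries that share tissue, diet and preparation, and these values are descriptions with no test. The ratio of *Abca1* to *Abcg1* lay between 0.572 and 0.76 and differed by 0.02 on the log2 scale (exact permutation p = 0.9).

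**Figure D2:**
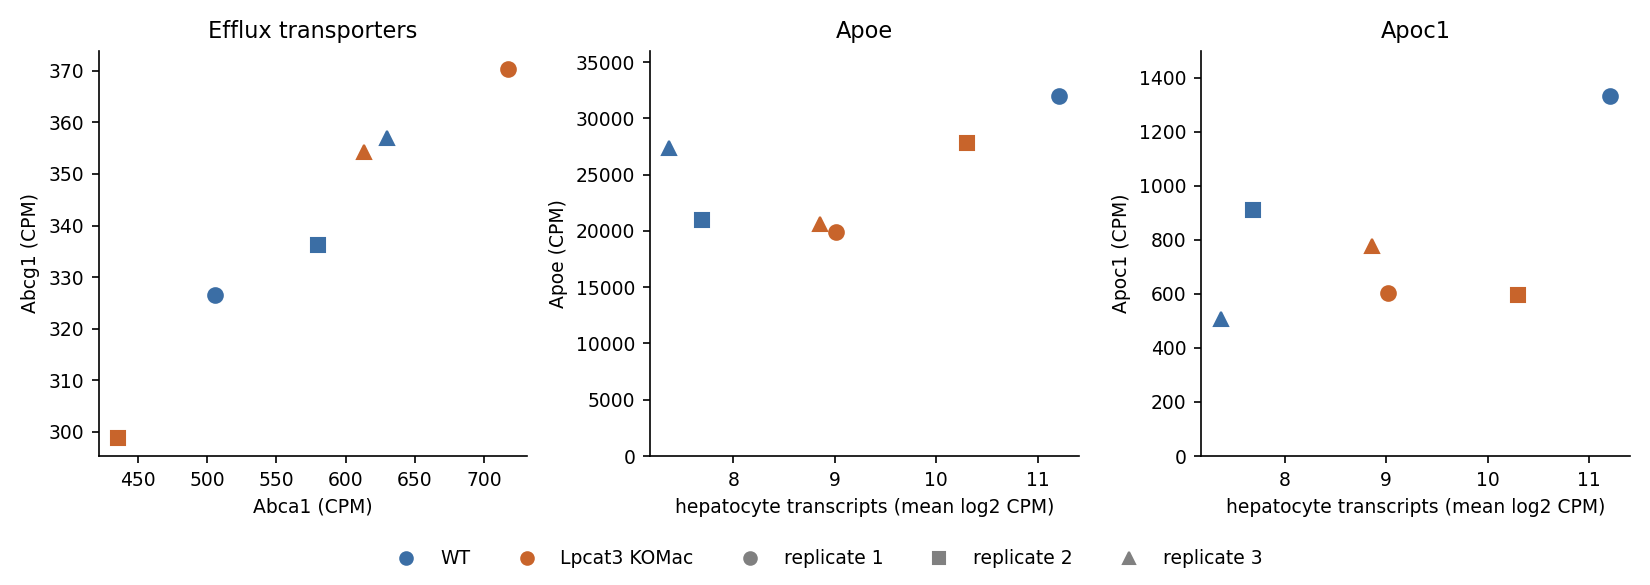
*Abcg1* against *Abca1* in CPM (left, axes not from 0), and *Apoe* and *Apoc1* in CPM against the mean log2 CPM of 5 hepatocyte transcripts (middle, right), 1 symbol per library, blue for WT and orange for Lpcat3 KOMac. The exporters rise together across genotypes, and the highest *Apoe* and *Apoc1* values (31960 and 1331 CPM) are both in WT mouse 1, the library highest in hepatocyte transcripts. Lpcat3 KOMac mouse 2, the second highest, has them at 27770 and 597 CPM, and WT mouse 3, the lowest, at 27340 and 507 CPM.

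*Mylip* (ENSMUSG00000038175, chr13:45389742-45412019, plus strand) encodes IDOL, a ubiquitin ligase that sends lipoprotein receptors to degradation. It was at 125, 120 and 146 CPM in WT and at 138, 105 and 137 CPM in Lpcat3 KOMac, with overlapping groups (log2 fold change -0.04, SE 0.14, 95% interval -0.39 to 0.31). *Vldlr* and *Lrp8*, receptors that IDOL marks, reached at most 1.93 and 0.482 CPM.

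Of the lipoprotein genes, *Apoe* had the highest level of the 10 and *Apoc1* the widest spread. *Apoe* (ENSMUSG00000002985, chr7:19696109-19699188, minus strand), the ligand that carries lipoprotein remnants to their receptors, was at 31960, 21010 and 27340 CPM in WT. In Lpcat3 KOMac it was at 19890, 27770 and 20590 CPM. The log2 fold change was -0.23 (SE 0.21, 95% interval -0.75 to 0.28), with mouse 2 of each genotype on the far side of its group. It was -0.09, -0.11 and -0.14 without WT mouse 1, Lpcat3 KOMac mouse 1 and Lpcat3 KOMac mouse 3, and -0.38 and -0.39 without WT mouse 2 and Lpcat3 KOMac mouse 2. *Apoe* was the only one of the 10 genes whose 2 highest libraries were the 2 richest in hepatocyte transcripts, an order seen in 21.8% of all genes tested. In 4 of the 10 (*Nr1h2*, *Nr1h3*, *Abca1* and *Abcg1*) those libraries were instead the 2 lowest. That held for 3699 of all 16134 genes tested and for 1265 of the 4045 genes with at least 50 CPM. *Apoe* is also made in quantity by hepatocytes.

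*Apoc1* (ENSMUSG00000040564, chr7:19689481-19692660, minus strand), a small apolipoprotein encoded next to *Apoe*, ranged 2.62-fold. It was at 1331, 911 and 507 CPM in WT and at 604, 597 and 776 CPM in Lpcat3 KOMac, and the lowest library of all was a WT one. Its log2 fold change of -0.48 (SE 0.35, 95% interval -1.35 to 0.40) moved to -0.11 without WT mouse 1 and to -0.77 without WT mouse 3. *Apoc1* and *Apoe* did not keep a fixed ratio: it ran from 0.0533 in WT mouse 3 to 0.125 in WT mouse 2, and the genotypes differed by -0.15 on the log2 scale (exact permutation p = 0.8). Of the other genes beside them, *Clptm1* was level (141 to 162 CPM), while *Apoc4*, picked out after its values were seen, ran from 8.59 to 180 CPM with its peak in WT mouse 1.

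*Pltp* (ENSMUSG00000017754, chr2:164839518-164857711, minus strand) encodes the phospholipid transfer protein that remodels HDL. It was at 1774, 2453 and 2100 CPM in WT and at 1434, 1363 and 2029 CPM in Lpcat3 KOMac. Lpcat3 KOMac mouse 3 lay inside the WT range and the other two below it. The log2 fold change was -0.39 (SE 0.20, 95% interval -0.89 to 0.11, unadjusted p = 0.103, adjusted p = 1.0 by the edgeR quasi-likelihood test). The exons of *Pltp* overlap those of *Ctsa* on the other strand over 495 bases, 19.3% of its exonic length. The library kit did not keep the strand, so reads there could belong to either gene. How such reads were counted is not given.

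*Smpdl3a* was the one LXR gene whose genotypes did not overlap. It (ENSMUSG00000019872, chr10:57794335-57811830, plus strand) encodes a secreted phosphodiesterase of the acid sphingomyelinase family. The WT libraries stood at 797, 976 and 761 CPM and the Lpcat3 KOMac libraries at 663, 655 and 694 CPM, means of 845 ± 115 and 671 ± 20.8 (SD, n = 3 each). The log2 fold change was -0.33 (SE 0.12, 95% interval -0.62 to -0.04, unadjusted p = 0.0313, adjusted p = 1.0 by the edgeR quasi-likelihood test). The exact two-sided permutation test gave p = 0.1, the smallest it can give here. One such gene of 10 stands against a background of 5.20% of all genes that were lower without overlap, and of 8.65% of the genes with at least 50 CPM. At an unadjusted p under 0.05 the background was 1.57% lower and 1.07% higher over all genes. Among the 4045 genes with at least 50 CPM, 131 were lower and 13 higher at that threshold. The fold change stayed between -0.40 and -0.22 when any single mouse was dropped. The unadjusted p was not under 0.05 in 7 of 16 alternatives, among them total-count scaling, the replicate number as a block, and leaving out WT mouse 2 or any 1 of the Lpcat3 KOMac mice. *Smpdl3a* was alone without overlap when WT mouse 2 or Lpcat3 KOMac mouse 1 was left out (background 7.93 and 7.44% of all genes lower without overlap). *Pltp* joined it without WT mouse 1 (15.5%) and without Lpcat3 KOMac mouse 3 (9.12%), *Apoc1* without WT mouse 3 (9.25%), and *Apoe* without Lpcat3 KOMac mouse 2 (9.69%). The Kupffer cell marker *Clec4f* was also lower without overlap (9170, 12170 and 8772 against 7361, 6449 and 8331 CPM), and all 6 markers of its list had fold changes below 0. Their part in the *Smpdl3a* difference was not tested.

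*Arl4c* (ENSMUSG00000049866, chr1:88673125-88702221, minus strand), a small GTPase of the ARF family tied to cholesterol transport, stood at 114, 148 and 185 CPM in WT and at 128, 130 and 150 CPM in Lpcat3 KOMac. The Lpcat3 KOMac range lay inside that of WT. The log2 fold change was -0.13 (SE 0.19, 95% interval -0.60 to 0.33), and it turned to 0.05 without WT mouse 3.

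**Figure D3:**
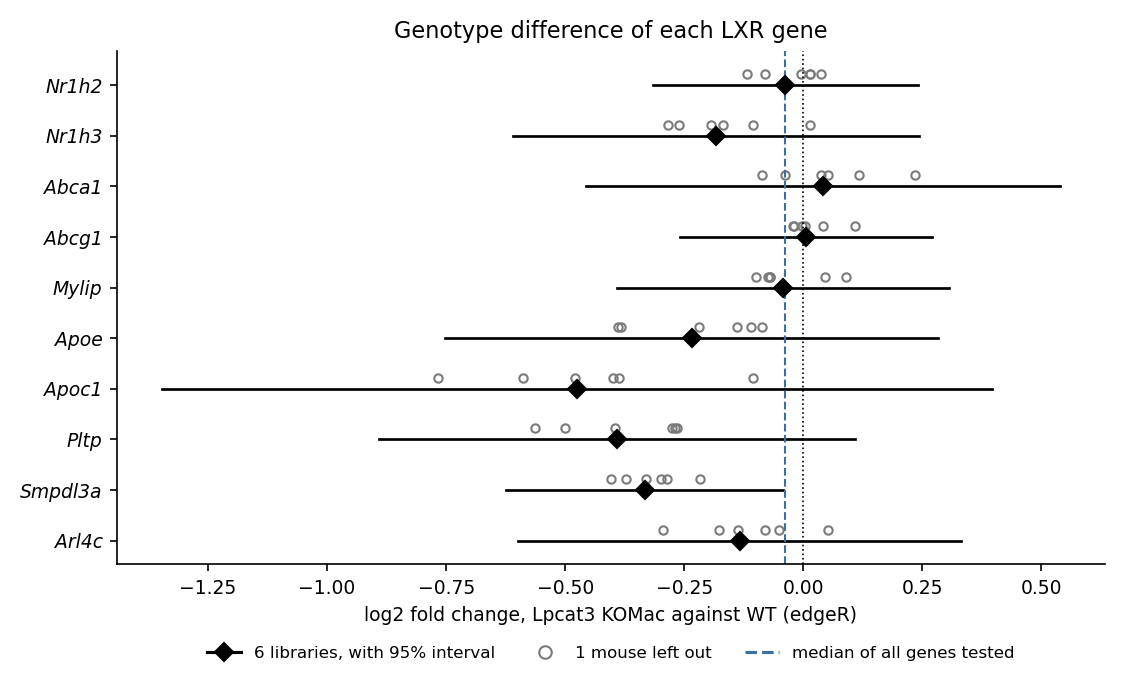
Log2 fold change (Lpcat3 KOMac against WT, edgeR) of each LXR gene with its 95% interval (black), the values with 1 mouse left out (open circles) and the median of all genes tested (dashed, -0.04). The intervals of 9 genes include 0; that of *Smpdl3a* runs from -0.62 to -0.04, and the circles of *Apoe*, *Apoc1*, *Pltp* and *Smpdl3a* all lie below 0.

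Set in order by level per length, the 10 genes spanned from *Apoe* at a mean of 11580 CPM per kilobase to *Nr1h2* at 25.0. *Apoe* stood 10.9-fold above *Apoc1* (1059 CPM per kilobase), whose library values overlapped those of *Pltp* (726). That pair changed order in WT mouse 3, so it could not be ranked beyond its spread. *Smpdl3a* (367) overlapped *Nr1h3* (244) in range, but was higher than *Nr1h3* within every library. *Abcg1* (83.8) lay clear of the genes on either side of it. *Abca1* (56.0) overlapped *Mylip* (42.0) in range, but was higher than *Mylip* within every library. *Arl4c* (25.9) overlapped *Nr1h2*, and their order changed between libraries. The receptor LXRα was thus more abundant per length than the exporters it drives, in every library, and LXRβ was the least abundant of the 10 by its mean.

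**Figure D4:**
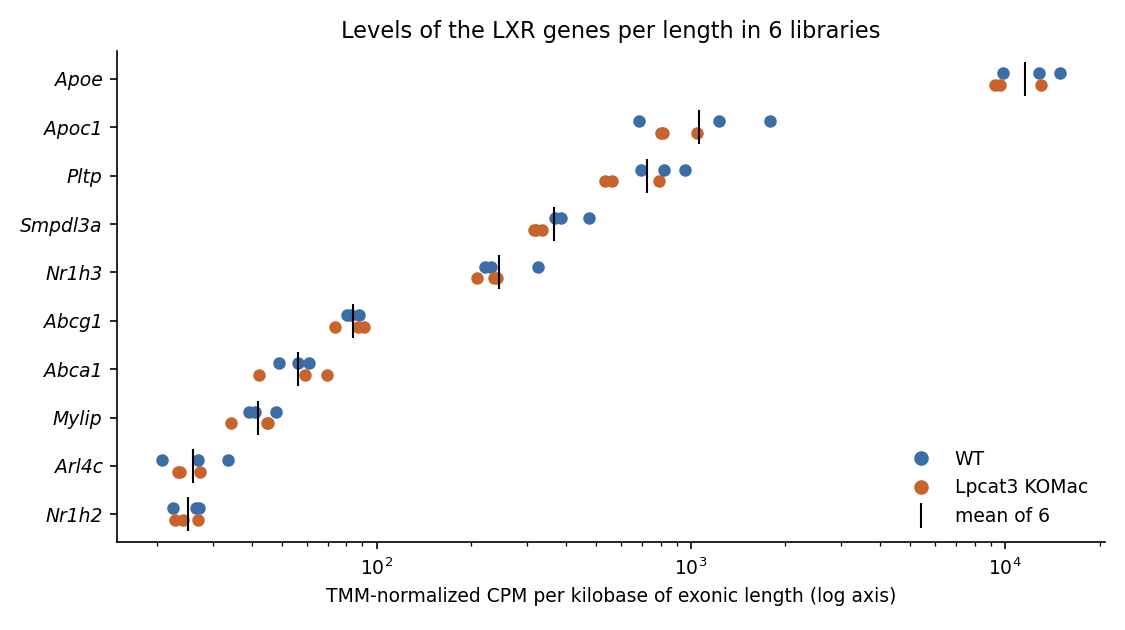
Level of each LXR gene in CPM per kilobase of exonic length on a log axis, with 3 WT (blue) and 3 Lpcat3 KOMac (orange) libraries and the mean of 6 (bar). *Apoe* (11580) lies apart at the top, and the points of *Arl4c* and *Nr1h2* (25.9 and 25.0) overlap at the bottom.

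Which other genes shared the profile of LXRα over the libraries was asked of the same 9434 genes. The 5 most like *Nr1h3* were *Csf1r* (r = 0.993), the receptor for the macrophage growth factor CSF1, *Wwc2* (r = 0.990), *Dyrk2* (r = 0.990), *Susd6* (r = 0.989) and *Fan1* (r = 0.987). *Csf1r* itself stood at 3980, 6400 and 4380 CPM in WT and at 4370, 3880 and 4380 CPM in Lpcat3 KOMac, high in WT mouse 2 like *Nr1h3*. Of the other LXR genes, *Smpdl3a* (r = 0.82) and *Pltp* (r = 0.741) came nearest to *Nr1h3*, and *Abca1* (r = 0.326) and *Mylip* (r = 0.0332) were far from it. WT mouse 2 was the highest library for *Nr1h3* and for all 5 of the genes most like it. Those 5 were picked by their r over these same libraries, so the shared peak follows from the choice. The r values are descriptions with no test.

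The level of hepatocyte transcripts, which differed 14.3-fold between libraries on the mean of their log2 CPM, was compared with each LXR gene over the 6 libraries. *Nr1h2* had a negative correlation with it (Pearson r = -0.906, exact permutation p = 0.0139, Spearman rho = -0.943, p = 0.0167), and so did *Arl4c* (r = -0.884, exact permutation p = 0.0236, rho = -0.886, p = 0.0333). Adjusted over the 10 genes, the smallest exact permutation p was 0.118 for Pearson's r and 0.167 for Spearman's rho, so 0 of 10 passed. Without the 2 libraries farthest from the median, WT mice 1 and 3, r was -0.814 for *Nr1h2* and -0.698 for *Arl4c*. In that setting *Nr1h3* (r = -0.952), *Pltp* (r = -0.876) and *Smpdl3a* (r = -0.849) were more strongly negative than *Nr1h2*. *Abca1* (r = -0.566), *Abcg1* (r = -0.533) and *Mylip* (r = -0.447) were less negative than *Arl4c*. Over all 6 libraries *Apoe* (r = 0.545) and *Apoc1* (r = 0.518) were the only ones of the 10 with a positive r. That of *Apoc1* became -0.863 without WT mice 1 and 3. Without WT mouse 1 alone the r of *Apoe* was 0.132, and that of *Apoc1* was -0.126. The hepatocyte level did not differ between genotypes by the exact permutation test (p = 0.6). Leaving out the library highest in it from each genotype, a step added after the data were seen, brought the genes without overlap to 3 of 10 (*Apoe*, *Pltp* and *Smpdl3a*, all lower), with 0 called. The background of genes lower without overlap was then 21.4% of all genes and 29.3% of those with at least 50 CPM, so this share is near the background.

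The partners and cofactors of LXR gave 0 calls. Of the RXR genes, *Rxra* was the most abundant (807, 904 and 629 CPM in WT, 635, 733 and 710 CPM in Lpcat3 KOMac, log2 fold change -0.17, SE 0.15). *Rxrb* was lower without overlap, at 81.5, 81.1 and 78.7 against 72.0, 76.9 and 74.1 CPM. Its log2 fold change was -0.11 (SE 0.07, unadjusted p = 0.147 by the edgeR quasi-likelihood test). Lower without overlap were 8.65% of the genes with at least 50 CPM. *Rxrg* reached at most 2.06 CPM. Of 10 coactivators and corepressors 0 passed the test, 5 lay below 0 and 5 above, and their fold changes stayed between -0.19 and 0.09. *Ncoa3*, a coactivator and the most abundant, was at 195.3 to 298.4 CPM with overlapping groups.

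The 8 enzymes that make or clear sterol ligands gave 0 calls, and their spread between libraries was wide. In 5 of the 8 the 2 highest libraries were the 2 richest in hepatocyte transcripts, against 21.8% of all genes tested. *Cyp7b1*, an oxysterol hydroxylase chosen after its values were seen, ran from 2.34 to 78.2 CPM. *Cyp27a1*, which makes an oxysterol LXR ligand and was the most abundant of the 8, stood at 224 CPM in WT mouse 1 and at 100 to 143 CPM in the other libraries.

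Of 6 genes for the handling of cholesterol inside the cell 0 were called, with a median log2 fold change of 0.06. *Lipa*, the lysosomal lipase that frees cholesterol from its esters, was the most abundant at 1037 to 1302 CPM. *Npc2*, which takes free cholesterol out of the lysosome, was lower without overlap, at 816, 861 and 945 CPM in WT and 795, 746 and 724 CPM in Lpcat3 KOMac. Its log2 fold change was -0.21 (SE 0.09, unadjusted p = 0.0653 by the edgeR quasi-likelihood test). Of the genes with at least 50 CPM, 8.65% were lower without overlap. *Npc1*, *Soat1*, *Nceh1* and *Scarb1* overlapped.

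The LXR targets outside the 10 did not share a direction. Of 12, 6 lay above 0 and 6 below, 0 were called, and 1 in each direction had an unadjusted p under 0.05, *Lpcat3* lower and *Scd2* higher. *Lpcat3*, counted here among the 6 below 0, is the deleted gene, so its lower level was set by the design. *Scd2*, a desaturase that makes monounsaturated fatty acids, stood at 82.4, 90.7 and 122.7 CPM in WT and at 184, 135 and 230 CPM in Lpcat3 KOMac, all above WT. Its log2 fold change was 0.89 (SE 0.24, 95% interval 1.23- to 2.82-fold, unadjusted p = 0.0111, adjusted p = 1.0 by the edgeR quasi-likelihood test). Higher without overlap were 2.29% of all genes, and 24 of the 4045 genes with at least 50 CPM. *Cd5l*, an LXR-driven macrophage protein and the most abundant of the 12, was at 9770, 11790 and 10820 CPM in WT and at 9007, 8317 and 10540 CPM in Lpcat3 KOMac, with overlap (log2 fold change -0.22, SE 0.13). Markers of other cells were also measured: the endothelial 5-gene sum (5 of 5 above 0, 2 at an unadjusted p under 0.05) was 663 to 796 CPM in WT and 772 to 1040 CPM in Lpcat3 KOMac (exact permutation p = 0.2), and the lipid-associated macrophage 4-gene sum (*Gpnmb*, *Spp1*, *Trem2*, *Cd9*, 4 of 4 above 0) was 111 to 370 CPM against 406 to 456 CPM (exact permutation p = 0.1). Their part in the *Scd2* difference was not tested.

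**Figure D5:**
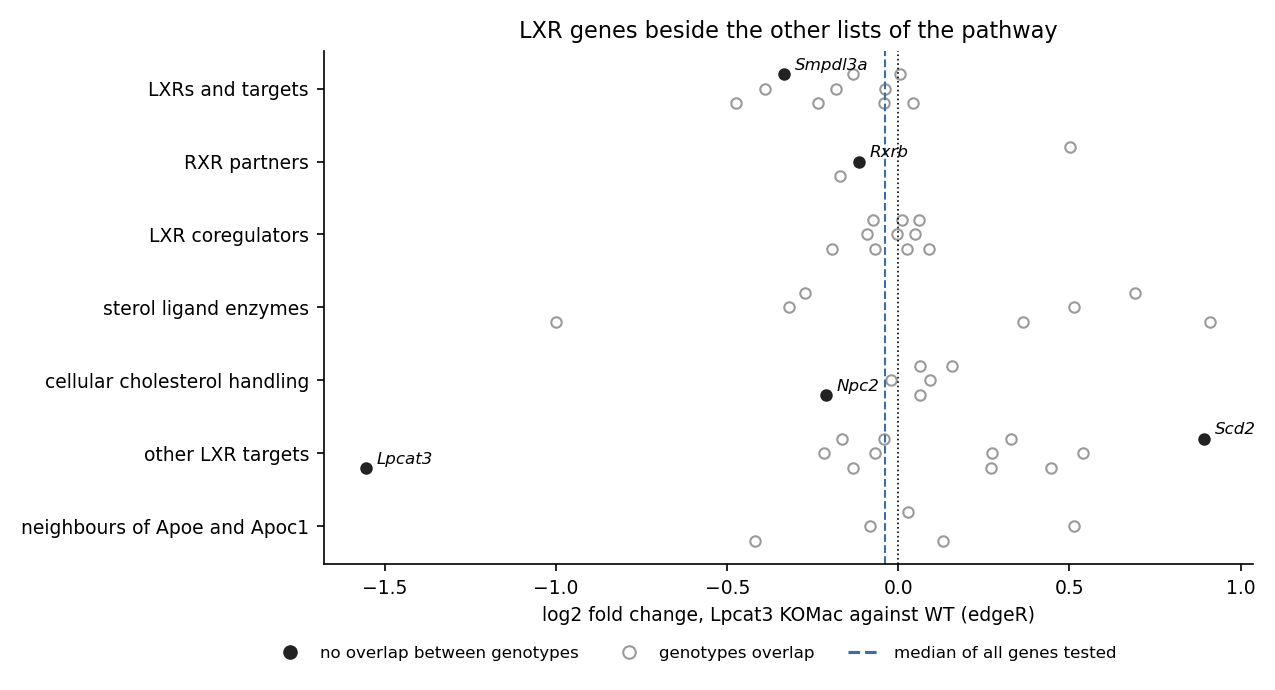
Log2 fold change (Lpcat3 KOMac against WT, edgeR) of the LXR genes and of 6 further lists of the pathway, 1 circle per gene shown, filled where the genotypes do not overlap, with the median of all genes tested dashed (-0.04). Filled circles are *Smpdl3a*, *Rxrb*, *Npc2* and the deleted gene *Lpcat3* below 0 and *Scd2* above it (0.89), and the coregulators keep between -0.19 and 0.09.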

How the data were processed

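Liver F4/80+ cells of 3 WT and 3 Lpcat3 KOMac mice were sequenced, each mouse giving 1 poly-A library. For each library the authors deposited raw read counts, not normalized, over 49315 Ensembl genes of GRCm38. The submitters' processing notes name Trimmomatic 0.36, STAR 2.5.2b and featureCounts of Subread 1.5.2. The strand and multi-mapping settings of the counting are not given in the sources used here. Symbols came from GENCODE M21 (48970 IDs matched). Genotype and replicate number were read from the labels. The labels do not say whether the numbers mark pairs. Deviations of same-numbered mice correlated at -0.303, -0.596 and 0.36, and those of differently numbered mice at a mean of 0.11. With 3 mice a genotype these values cannot decide it.

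Genotypes were compared in R 4.3.3 by edgeR 4.0.16: filterByExpr (minimum count 10), TMM scaling, and a robust quasi-likelihood test on genotype alone. The Benjamini-Hochberg adjustment ran over 16134 genes at a threshold of 0.05. Standard errors are the log2 fold change over the square root of F, and intervals use its degrees of freedom. CPM used a prior count of 2 only for log2 values. Exact permutation tests were two-sided. Each LXR gene had at least 3950 counts in each library, so counting error was small beside the spread between mice. Alternatives were DESeq2 1.42.0 (size factors alone, and its test with alpha 0.1), limma-voom (limma 3.58.1), total-count scaling, 2 other count filters, no robust step, the replicate number as a block, the hepatocyte level as a covariate, and leaving out each mouse. Tests were checked on simulated data. The comparison with genes of at least 50 CPM was added after the data were seen.

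The 10 genes and all lists were chosen with earlier results of these data known. Named with values were all 10, and of each list the genes with an unadjusted p under 0.05 or no overlap and the most abundant one, and for *Nr1h3* and *Abca1* the 5 genes of highest r among those with a mean log2 CPM of at least 3. Promoters came from RefSeq (GRCm38.p6). Some genes of the lists are not reported here.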

Additional observations from a re-analysis of the deposited data

How the results depend on the processing

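The biological coefficient of variation common to all genes tested was 0.391. With 3 mice a genotype, the 95% intervals of the LXR genes differed in width. The narrowest was -0.26 to 0.27 for *Abcg1* and the widest -1.35 to 0.40 for *Apoc1*. A missed threshold does not show equal levels. No LXR gene was called under any of the 16 alternatives. DESeq2 called 12 genes, 2 of them in the lists (*Lpcat3* and *Lyz2*). Genes with an unadjusted p under 0.05 numbered 138 under the replicate block, which called 0, and 2028 without WT mouse 1. *Smpdl3a*, *Pltp*, *Apoe* and *Apoc1* had a negative fold change in all 16. On the log2 scale, total-count scaling gave 0.0512 for *Nr1h2* and 0.0487 for *Mylip*, and shifted the median of all genes by 0.0957. The hepatocyte covariate gave 0.0153 for *Nr1h2*. *Abcg1* was -0.0028 without a count filter, -0.0004 by limma-voom and -0.0001 with the replicate block. Without the 2 libraries highest in hepatocyte transcripts *Mylip* was 0.0468 and 3 LXR genes had no overlap. Lower without overlap in that setting were 21.4% of all genes and 29.3% of those with at least 50 CPM.

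With 1 mouse left out at a time, log2 fold changes ran from -0.1188 to 0.0363 for *Nr1h2*, -0.2848 to 0.015 for *Nr1h3*, -0.0871 to 0.2353 for *Abca1*, -0.0223 to 0.108 for *Abcg1*, -0.0996 to 0.0905 for *Mylip*, -0.3899 to -0.0865 for *Apoe* and -0.2943 to 0.0512 for *Arl4c*. LXR genes without overlap numbered 1 to 2, where 7.44 to 15.5% of all genes were lower without overlap. The genotype difference in the LXRα share ran from -1.402 to 0.1035 percentage points, that of the log2 ratio of *Apoc1* to *Apoe* from -0.5466 to 0.06966, and that of *Abca1* to *Abcg1* from -0.07815 to 0.1273. The r with the hepatocyte level ran from 0.132 to 0.893 for *Apoe*, -0.126 to 0.756 for *Apoc1* and from -0.723 to 0.0699 for *Smpdl3a*. The cause of these shifts was not tested.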
